A study of Rattus norvegicus with 8 samples.

Results

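The genes described here are 39 members of the sarcomere other than the myosin heavy chains: actins, tropomyosins, nebulin, leiomodin 2, troponins, myosin light chains and their kinase, myosin binding proteins, myomesins, titin, Z-disc proteins and the linkers that tie the myofibril to the membrane. Their probes were found by name, as every gene spot of the array whose gene name equals that of a member. Of the 39 genes, 37 had a spot, with 45 probes; no spot carried the names Ldb3 or Tcap. After the filter on dim probes, 35 probes of 30 members could be tested, out of 12074 probes of 10882 genes kept among the 30367 probes of 26276 gene names on the array.

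The treated groups were castrated adult male Wistar rats, with RNA taken 24 h or 8 h after a subcutaneous injection of the androgen ester testosterone propionate at 4 mg/kg in corn oil. The control group was RNA of castrated rats of the same strain, sex and age (120 ± 12 days), and every array carried treated RNA in a dye and control RNA in the other. There were 4 arrays at 24 h and 4 at 8 h, so every rat in the study was castrated and no intact rat enters these comparisons. Treated RNA carried Cy5 in replicates 1 and 2 at 24 h and in replicates 3 and 4 at 8 h, and Cy3 in the others. The labels call the RNA that of castrated rat cells, C3d, and name no muscle; the series title gives muscle atrophy as the subject. Whether an array holds an animal or a pool, whether controls received oil, and whether arrays of opposite dye repeat the same extracts were not given in the sources used here. If extracts were repeated, the p-values would be too small.

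All arrays had 42877 gene spots, of which 34.8% to 48.9% were well above background in a channel. All 4 arrays of a time shared 1 slide, and the effects of slide and time cannot be told apart. Replicate 1 at 8 h had a wider spread of log2 ratios (SD 0.437) than the other 8 h arrays (0.18 to 0.198), and replicate 2 at 8 h had correlations between -0.121 and 0.274 with the other 8 h arrays. Probes of the skeletal muscle fibre markers were well above background on all arrays in both channels (8 of 8 probes), among them creatine kinase Ckm and myoglobin Mb. Of 6 cardiac marker probes, none was kept and 5 were never above background. In whole-tissue RNA, fewer cells of a type and less RNA per cell cannot be told apart.

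The sarcomere is the contractile unit of striated muscle: thin filaments of actin, anchored in the Z-disc, slide past thick filaments of myosin that are held together at the M-band. Calcium bound by troponin C moves tropomyosin along the thin filament and lets myosin heads attach, while titin and nebulin act as molecular rulers. Many of these proteins exist in fast-fibre and slow-fibre forms from separate genes, so their transcripts show which fibres a muscle sample contains. Skeletal muscle is a target of androgens, and the androgen-sensitive muscles of the male rat lose mass after castration.

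The sequences shown first are of 2 probes behind the results on members that differed at 24 h, and they are the array's own 60-base designs, 5′ to 3′ (rn4, all in lower case). The Mybph probe lies at chr13:47157265-47157436 on the plus strand and spans 172 genomic bases, so its 60 bases are not contiguous in the genome. The dimmer of 2 Mylk2 probes lies at chr3:143262920-143262979 on the plus strand. Exons and untranslated regions were not annotated here.
Mybph: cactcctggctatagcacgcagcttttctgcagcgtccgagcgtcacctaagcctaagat
Mylk2: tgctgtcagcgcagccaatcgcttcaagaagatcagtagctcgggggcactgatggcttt

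The probes of fast troponin C (Tnnc2, chr3:155807460-155807519, minus strand) and slow troponin C (Tnnc1, chr16:6642153-6642212, plus strand), also on rn4, are shown because they come from closely related coding sequences. Capitals mark the 48 of 59 aligned bases that are identical between the 2 probes. Whether RNA of the fast gene bound the probe of the slow gene was not tested.
Tnnc2: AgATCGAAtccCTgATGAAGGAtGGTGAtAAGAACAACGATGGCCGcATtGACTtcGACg
Tnnc1: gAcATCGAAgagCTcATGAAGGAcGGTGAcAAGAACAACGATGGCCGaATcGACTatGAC

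Of the members that differed at 24 h, Lmod2 and Acta1 have the promoters shown here, from RefSeq (GRCr8, 250 bases before to 50 after the gene start). Lmod2 is at chr4:54032724-54033023 on the plus strand and Acta1 at chr19:68784145-68784444 on the minus strand. Capitals mark matches, on either strand, to the E-box CANNTG, the TATA box TATAAA, the CArG box, the MEF2 site and the steroid receptor half-site AGAACA. In Acta1, the gene of skeletal alpha-actin, a CArG box starts 94 bases, a TATA box 29 bases and an E-box 237 bases before the start. In Lmod2 an E-box starts 74 bases before the start and another 38 bases after it. None of these matches overlaps another.
Lmod2: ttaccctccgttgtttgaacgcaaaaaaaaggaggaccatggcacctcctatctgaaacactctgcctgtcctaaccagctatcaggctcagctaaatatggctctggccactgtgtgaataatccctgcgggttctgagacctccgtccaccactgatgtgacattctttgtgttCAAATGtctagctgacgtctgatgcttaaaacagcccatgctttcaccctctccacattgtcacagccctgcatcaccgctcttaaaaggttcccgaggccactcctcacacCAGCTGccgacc
Acta1: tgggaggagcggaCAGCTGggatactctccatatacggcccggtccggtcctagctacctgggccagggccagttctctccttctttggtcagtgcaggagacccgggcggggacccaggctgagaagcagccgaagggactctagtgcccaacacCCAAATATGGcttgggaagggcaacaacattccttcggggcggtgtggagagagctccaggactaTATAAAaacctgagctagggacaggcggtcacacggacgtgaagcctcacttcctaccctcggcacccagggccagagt

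Promoters were found for 27 of the 39 members, 33 promoters in all because 4 of these genes have several starts, and shares here are per promoter. The CArG box, bound by serum response factor, was in 4 of the 33 (those of Acta1, Actc1, Myl3 and Ldb3), against 1.64% of all 33469 promoters of the same length. An E-box was in 29 of the 33 against 72.1% of all promoters, and a TATA box in 6 against 14.2%. The MEF2 site was in 7 against 3.29%, and the steroid receptor half-site in 6 against 20.7%. The Actn3 promoter held none of these. A match describes letters in this window only.

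At 24 h after testosterone, 7 of the 35 member probes passed an adjusted p of 0.05 (limma, Benjamini-Hochberg over all kept probes), against a background of 6.92% of all probes tested. The 1 that rose was Mybph, and the 6 that fell belonged to Lmod2, Mylk2 (2 probes), Actn3, Nrap and Acta1. Among all probes 4.15% rose and 2.77% fell. Treated and control signals at 24 h did not overlap for 13 of the 35 member probes, against 11% of all probes. Tpm3, which the filter kept only through its treated signal at 24 h, is among the 13. At 8 h no member probe passed in limma's test, against 0.0249% of all probes (0.0166% higher and 0.00829% lower), with 10 of 35 member probes and 16.9% of all probes at an unadjusted p under 0.05. The question of these comparisons, from the design, is what a dose of androgen does to transcripts of castrated rats at an early and a later time.

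**Figure D1:**
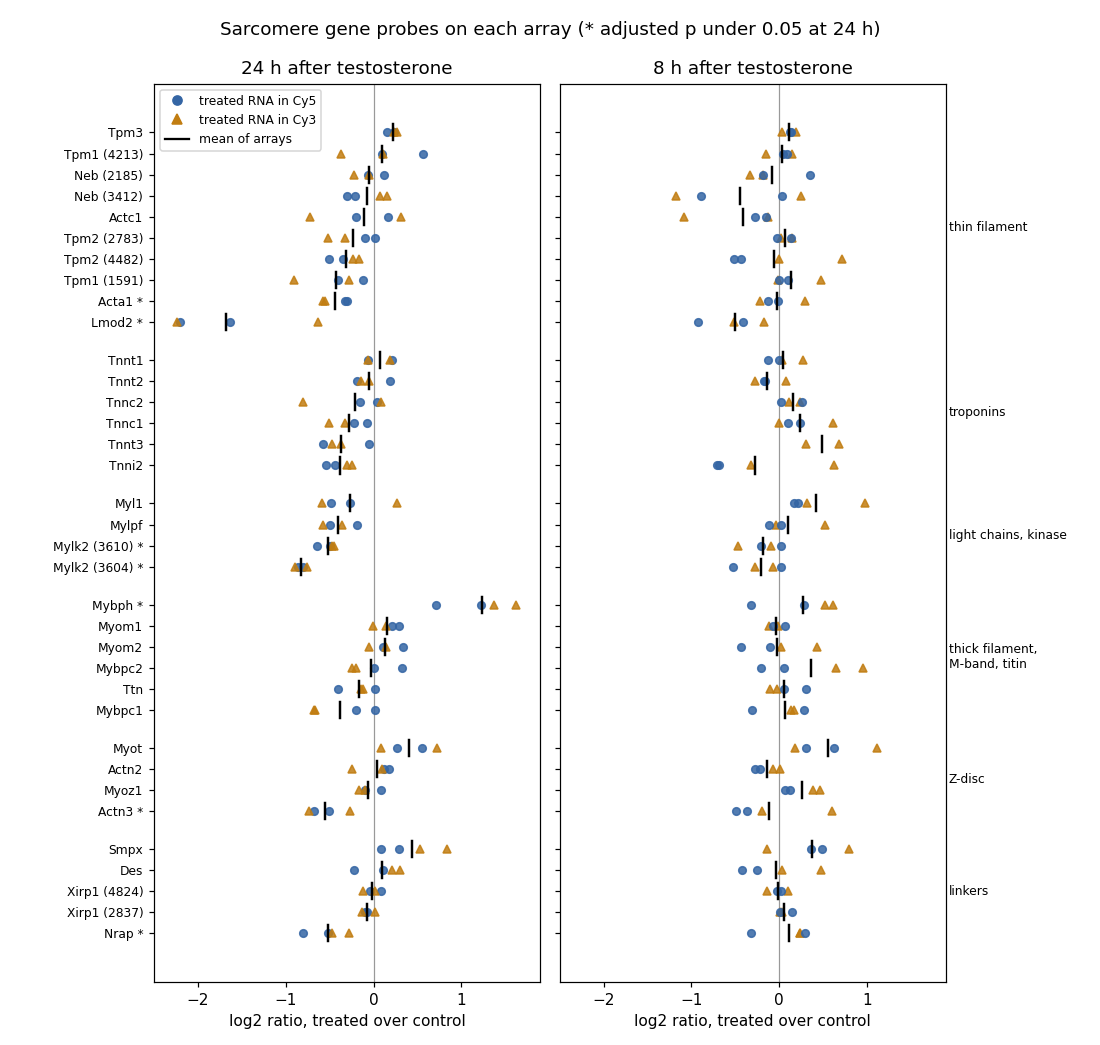
Log2 ratio of treated over control RNA on each array, for the 35 tested member probes (rows, grouped by role) at 24 h (left panel) and 8 h (right panel). Circles are arrays with treated RNA in Cy5, triangles arrays with treated RNA in Cy3, and vertical ticks the mean of the arrays; last digits of the probe name tell apart probes of a gene. At 24 h all 4 arrays lie above 0 for Mybph and below 0 for Lmod2, Mylk2, Actn3, Nrap and Acta1.

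Among the thin filament genes, Lmod2 had the lowest ratio of all member probes tested. It encodes leiomodin 2, which nucleates and lengthens actin filaments and is best known from the heart. Its log2 normalized signal was 7.49, 8.00, 6.78 and 7.92 in treated RNA of 24 h replicates 1 to 4, against 9.69, 9.64, 9.02 and 8.55 in control RNA of the same arrays. All treated signals lay below all control signals. The log2 ratios were -2.20, -1.64, -2.24 and -0.63, with the smallest difference on replicate 4. Lmod2 fell by 1.68 on the log2 scale (SD 0.75 over n = 4 arrays, SE 0.21, adjusted p = 0.00207 by limma), a level 3.2-fold lower in treated rats. This SE, like the others given here, comes from limma's fit to all 8 arrays, which share an estimate of the spread. At 8 h the ratios of Lmod2 were -0.17, -0.51, -0.92 and -0.41, all below 0, with a mean of -0.50 (SE 0.21, limma adjusted p = 0.285). The 24 h ratio was lower than the 8 h ratio by 1.17 (adjusted p = 0.0905), a difference that did not pass. The probe is placed on an unanchored part of chromosome 4 in rn4 (4_random, bases 417553 to 417612, plus strand).

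Acta1, the main actin of adult skeletal muscle, fell by 0.44 at 24 h (SD 0.15, n = 4 arrays, limma adjusted p = 0.0222), 1.36-fold lower in treated rats. Its signal was 11.30, 11.56, 11.39 and 11.56 in treated RNA, against 11.60, 11.88, 11.97 and 12.11 in control RNA, so the groups did not overlap, although the highest treated and the lowest control signal differed by little. At 8 h the treated signals were 11.10, 11.54, 11.45 and 11.42 and the control signals 11.32, 11.25, 11.57 and 11.43, which overlapped, with a mean ratio of -0.02 (adjusted p = 0.93). The call at 24 h was lost when any of the 24 h arrays was left out, and in the deposited processed signals the ratio was -0.30 (adjusted p = 0.286). With median centring in place of loess the ratio was -0.03 (adjusted p = 0.925).

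The other thin filament genes, Tpm3 aside, did not pass at 24 h. Tropomyosins wind along actin and block or expose its myosin sites, and the brighter Tpm1 probe (A_64_P021591) had ratios of -0.12, -0.41, -0.91 and -0.28 (mean -0.43, limma adjusted p = 0.075). The other Tpm1 probe was dimmer (mean log2 signal 6.6 against 13.1). Its ratios ran from -0.37 to 0.56, with a mean of 0.10 (limma adjusted p = 0.665). The 2 Tpm2 probes averaged -0.31 and -0.23 at 24 h (adjusted p = 0.168 and 0.127). Slow-fibre tropomyosin Tpm3 was well above background at 24 h in treated RNA on 4 of 4 arrays and in control RNA on 0 of 4, and only this carried it past the filter. Since that choice used the treated level at 24 h, its ratios of 0.23, 0.15, 0.27 and 0.23 are given as a description, with no test. Nebulin, the thin filament ruler, had probes at -0.06 and -0.07, and cardiac actin Actc1, also made in developing muscle, stood at -0.11 with arrays on either side of 0.

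None of the 6 troponin probes tested passed at 24 h. They ran from -0.38 to 0.07 with a median of -0.24 and 5 below 0, or with a median of 0.08 and 1 below 0 where arrays were median-centred in place of loess, a setting that moved the median of all probes to 0.15. Fast troponin I, Tnni2, the inhibitory subunit, had ratios of -0.44, -0.54, -0.24 and -0.30 (mean -0.38, SD 0.13, limma adjusted p = 0.149). Its treated signals at 24 h did not overlap the control signals (means 15.13 and 15.51). On each 24 h array its Cy5 channel was saturated (treated RNA on 2 arrays, control RNA on the other 2), so the size is approximate. Fast troponin T, Tnnt3, which binds tropomyosin, had ratios of -0.05, -0.58, -0.47 and -0.37 (mean -0.37, adjusted p = 0.0828). At 8 h Tnnt3 rests on replicates 1 and 2 alone, because its spots on replicates 3 and 4 carried outlier marks, so that both ratios (0.30 and 0.68) share a dye orientation. Fast troponin C, Tnnc2, averaged -0.21 (SD 0.41) at 24 h, with -0.80 on replicate 3 and between -0.15 and 0.08 on the others. Slow troponin C, Tnnc1, averaged -0.28 (SD 0.18, adjusted p = 0.152), with all 4 arrays below 0 and no overlap of its signals (treated mean 6.43, control mean 6.72). Slow and cardiac troponin T, Tnnt1 and Tnnt2, stood at 0.07 and -0.05.

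The kinase of the myosin regulatory light chain fell by a similar amount on each array. Mylk2 encodes skeletal muscle myosin light chain kinase, which phosphorylates the fast regulatory light chain Mylpf and so strengthens contraction. Its brighter probe (A_64_P003604, chr3:143263789-143263849, rn4) had 24 h signals of 10.98, 10.76, 10.15 and 10.44 in treated RNA, against 11.84, 11.56, 11.05 and 11.20 in control RNA. The groups did not overlap, and the ratios of -0.86, -0.80, -0.89 and -0.76 were close together. This probe fell by 0.83 (SD 0.06, limma adjusted p = 0.00088), 1.78-fold lower in treated rats. The dimmer probe, whose sequence is given above, fell by 0.52 (SD 0.08, adjusted p = 0.00713), with ratios of -0.64, -0.50, -0.47 and -0.45. At 8 h the probes averaged -0.21 and -0.19 (limma adjusted p = 0.287 and 0.301). The 24 h ratios were lower than the 8 h ratios by 0.62 and by 0.33 (limma adjusted p = 0.0517 and 0.218), and neither difference passed.

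Of the light chains themselves, Mylpf had ratios of -0.19, -0.49, -0.57 and -0.36 at 24 h (mean -0.40, SD 0.16, limma adjusted p = 0.0535), just outside the threshold. On each 24 h array its Cy5 channel was saturated, so the size is approximate. The essential light chain of fast fibres, Myl1, averaged -0.27 at 24 h (SD 0.38), with replicate 4 at 0.27 and the others below 0, and 0.42 at 8 h with all 4 arrays above 0 (adjusted p = 0.27). The slow and ventricular light chains Myl2 and Myl3 were not kept.

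In the thick filament, Mybph stood apart as the member that rose. It encodes myosin binding protein H, a relative of myosin binding protein C that sits on the thick filament. The treated signals at 24 h were 9.37, 8.85, 9.47 and 9.72, against control signals of 8.14, 8.14, 8.10 and 8.10. The control signals were close together and every treated signal was above them. Mybph rose by 1.23 on the log2 scale (ratios 1.22, 0.71, 1.37 and 1.62, SD 0.38, SE 0.11, limma adjusted p = 0.000265), 2.35-fold higher in treated rats. At 8 h the treated signals of 7.85, 8.12, 8.10 and 7.44 overlapped the control signals of 7.24, 7.60, 7.82 and 7.77. The 8 h ratios were 0.61, 0.52, 0.28 and -0.32, with replicate 4 the only one below 0 (mean 0.27, limma adjusted p = 0.281).

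Mybph was also the single member whose 24 h and 8 h ratios differed past the threshold, against a background of 1.26% of all probes (0.729% higher and 0.53% lower at 24 h). The 24 h ratio exceeded the 8 h ratio by 0.96 (SE 0.16, limma adjusted p = 0.0207), a 1.95-fold difference. This call was lost when 24 h replicate 1, 3 or 4 or 8 h replicate 4 was left out. Over all alternatives the difference stayed between 0.83 and 1.17, with an adjusted p of up to 0.382. Counting Mybph, 15 of 35 member probes had an unadjusted p under 0.05 for the difference between times, against 16% of all probes.

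**Figure D2:**
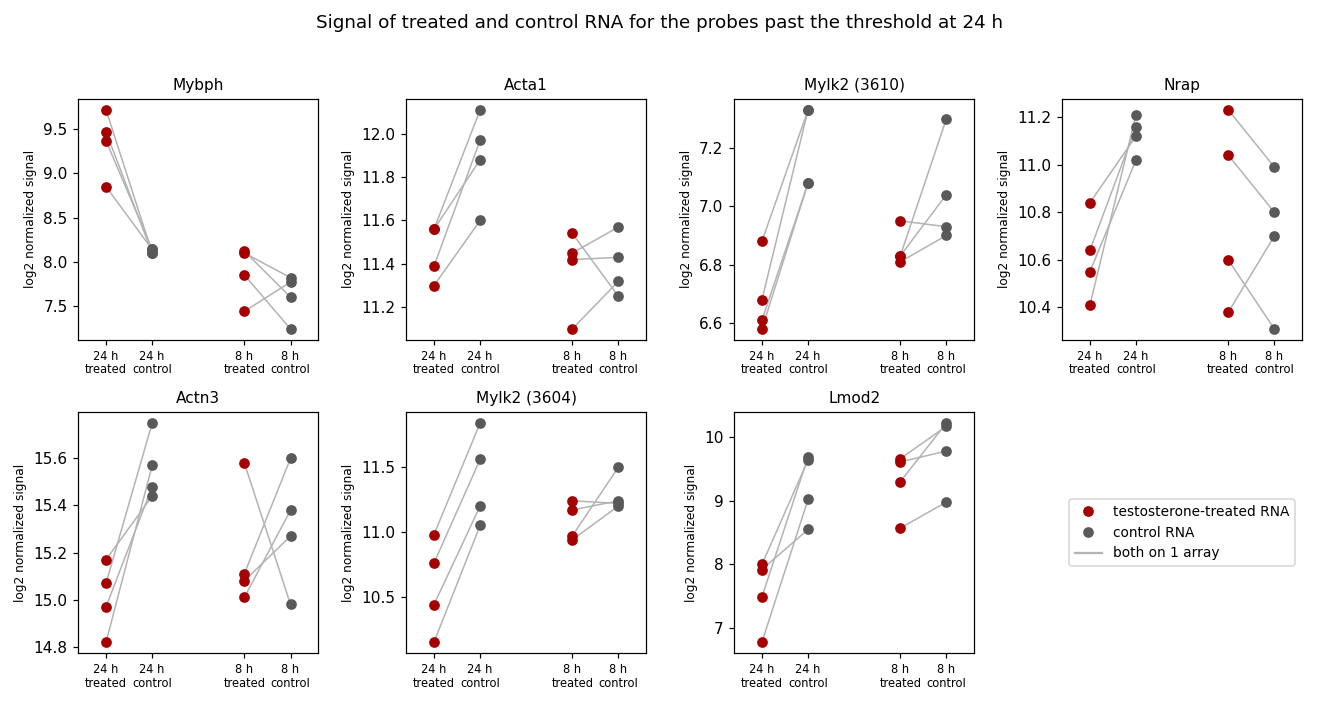
Log2 normalized signal of treated RNA (red) and control RNA (grey) on each array at 24 h and 8 h, for the 7 probes that passed at 24 h; a line joins the 2 channels of an array and each panel has its own vertical scale. At 24 h no treated signal overlaps a control signal in any of these 7 panels, which were chosen for passing at that time. At 8 h the channels overlap in each panel.

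The other 5 thick filament, M-band and titin probes did not pass and ran from -0.38 to 0.16 at 24 h. Slow myosin binding protein C, Mybpc1, had ratios of -0.20, 0.02, -0.67 and -0.68 (mean -0.38, limma adjusted p = 0.0994), lower on the arrays with treated RNA in Cy3. Its fast counterpart Mybpc2 averaged -0.03 at 24 h and 0.36 at 8 h. Titin, the giant spring of the sarcomere, stood at -0.16 on its probe, and the M-band proteins Myom1 and Myom2, which cross-link myosin, at 0.16 and 0.13.

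At the Z-disc, 1 of the 4 probes tested fell at 24 h, against 2.77% of all probes. Actn3 encodes alpha-actinin-3, the actin cross-linker of fast-fibre Z-discs. Its treated signals were 15.07, 14.97, 14.82 and 15.17, against control signals of 15.75, 15.48, 15.57 and 15.44, with no overlap. It fell by 0.55 (ratios -0.68, -0.51, -0.74 and -0.27, SD 0.21, limma adjusted p = 0.0403). On each 24 h array 1 of its channels was saturated (treated RNA on 2 arrays, control RNA on the other 2), so the size is approximate. The call was lost when any 24 h array was left out, with processed signals (-0.35, limma adjusted p = 0.213) and with median centring (-0.09, limma adjusted p = 0.742). Actn2, the alpha-actinin of all fibre types, averaged 0.04. Myoz1, the calcineurin-binding Z-disc protein of fast fibres, averaged -0.06 at 24 h and 0.26 at 8 h.

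Myotilin, Myot, which bundles actin at the Z-disc, had positive ratios on all 8 arrays without passing at either time. They were 0.55, 0.27, 0.08 and 0.72 at 24 h (mean 0.41, limma adjusted p = 0.141) and 1.11, 0.18, 0.30 and 0.63 at 8 h (mean 0.56, limma adjusted p = 0.27). The median of the 4 Z-disc probes was -0.01 at 24 h and 0.08 at 8 h, against 0.00 and -0.01 for all probes, or 0.28 and 0.61 with median centring, against 0.15 and 0.12 for all probes.

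Among the linkers, Nrap fell at 24 h. It encodes nebulin-related anchoring protein, which takes part in myofibril assembly and lies at the ends of myofibrils. Its treated signals were 10.41, 10.64, 10.55 and 10.84, against control signals of 11.21, 11.16, 11.02 and 11.12, with no overlap. Nrap fell by 0.52 (ratios -0.80, -0.52, -0.47 and -0.28, SD 0.21, limma adjusted p = 0.014), 1.43-fold lower in treated rats. At 8 h it averaged 0.11 with 3 of 4 arrays above 0, and the 24 h ratio was lower than the 8 h ratio by 0.63 (adjusted p = 0.0634). The 24 h call was lost without 24 h replicate 1 or 3, with processed signals (-0.44, limma adjusted p = 0.154) and with median centring (-0.12, limma adjusted p = 0.766). Smpx, a small muscle protein tied to stretch, averaged 0.44 at 24 h with all 4 arrays above 0 (limma adjusted p = 0.105) and 0.38 at 8 h. Desmin, the intermediate filament of muscle, stood at 0.10 and the 2 probes of Xirp1, an actin-binding protein of muscle attachment sites, at -0.07 and -0.01.

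All 10 probes of the 9 fast genes were tested and all 10 lay below 0 at 24 h, or 3 of 10 with median centring in place of loess. Among all probes 5953 of 12073 lay below 0 at 24 h. The median of the fast probes was -0.38 against 0.00 for all probes, or 0.08 against 0.15 with median centring. Of the fast probes 3 fell (Actn3 and both Mylk2 probes), against 2.77% of all probes. The array medians of these probes at 24 h were -0.23, -0.50, -0.52 and -0.29. At 8 h the median of the fast probes was 0.13 with 4 below 0, or 0.69 with 1 below 0 under median centring, where all probes had 0.12. The 8 h array medians were 0.04, 0.50, 0.02 and 0.02. Leaving out any 1 array left the 24 h median of the fast members between -0.46 and -0.32.

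Some of the fast members were among the brightest probes of the array. The 4 fast members at a mean log2 signal of 14 or more (Actn3, Tnni2, Mylpf and Tnnc2) were among 62 such probes in all. Those 62 probes had a median of -0.39 at 24 h, 57 were below 0 and 25.8% fell, while the 1151 probes between 10 and 14 had a median of -0.02 and 5.39% fell. Within the fast members the lowest ratio, -0.83, was on the brighter Mylk2 probe (mean log2 signal 11.1). Next came Actn3 at -0.55 (mean log2 signal 15.3) and the dimmer Mylk2 probe at -0.52 (6.9). This order depended on the processing. With a normexp offset of 10 the brighter and dimmer Mylk2 probes stood at -0.82 and -0.79, and with processed signals at -0.85 and -1.05. At 24 h the spots of Actn3, Tnni2 and Mylpf were each saturated in treated RNA on 2 arrays and in control RNA on the other 2, and that of Tnnc2 in treated RNA on 2 and in control RNA on 0. The saturated channel was Cy5 in each case. The part of brightness or saturation in the fast members' ratios was not tested.

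**Figure D3:**
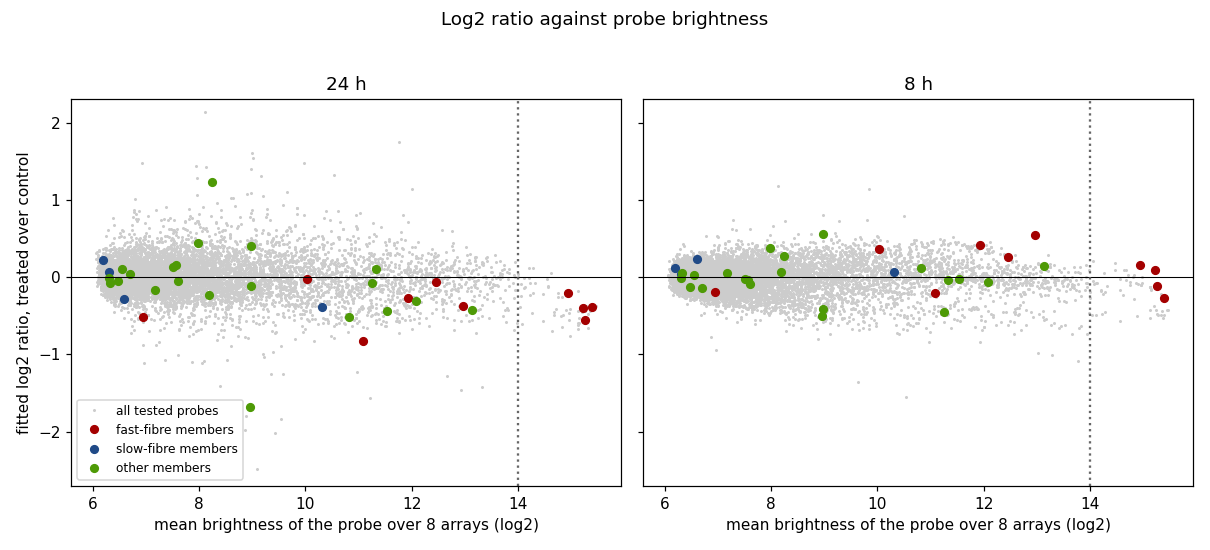
Fitted log2 ratio (vertical axis, treated over control) against the mean log2 brightness of each probe over the 8 arrays, at 24 h (left) and 8 h (right); grey points are all tested probes, red fast-fibre, blue slow-fibre and green other members, and the dotted line marks a brightness of 14. At 24 h all 10 fast-fibre points lie below 0 (3 of 10 would with median centring in place of loess), and the probes beyond the dotted line have a median of -0.39.

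The slow-fibre genes were mostly too dim to measure. Of their 11 probes, 6 were never above background in either channel of any array, and 4 were kept, against 10 of 10 for the fast genes. The 5 slow genes with no kept probe were Tnni1, Myl2, Myl3, Myoz2 and Csrp3, that is the slow troponin I, both slow light chains, a slow Z-disc protein and the muscle LIM protein. Myl3 passed the background limit on 2 treated and 0 control arrays at 24 h and on 1 treated and 2 control arrays at 8 h. The 4 slow probes kept (Mybpc1, Tnnc1, Tnnt1 and Tpm3) had a median of -0.11 at 24 h. The 3 without Tpm3, which is given with no test, had a median of -0.28 and none passed. Of the kept slow probes only Mybpc1 was bright (mean log2 signal 10.3), with Tnnc1 at 6.6, Tnnt1 at 6.3 and Tpm3 at 6.2. The Tnnc1 probe is the one shown above beside the similar probe of fast Tnnc2. Among the cardiac or developmental members, Ankrd1 was not kept and Actc1 and Tnnt2 did not pass; Ankrd2, a stretch-responsive ankyrin repeat protein, was not kept either. The second probes of Tnnt1, Tnnt2 and Tpm3 were also too dim.

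Over all 35 member probes the median at 24 h was -0.11 with 25 below 0, or 0.10 with 8 below 0 under median centring. At 8 h it was 0.04 with 16 below 0, or 0.36 with 6 below 0 under median centring. Among all probes 5953 of 12073 lay below 0 at 24 h and 6376 of 12069 at 8 h. The skeletal fibre markers outside the sarcomere had a median of -0.21 at 24 h, ran from -0.53 to 0.14, and none of their 8 probes passed. Their linear signals were summed per array, so that bright probes weigh most. At 24 h the log2 of this sum ran from 16.57 to 17.07 in treated RNA and from 17.02 to 17.18 in control RNA. The marker sums that follow were taken in the same way. The fibroblast marker sum ran from 11.19 to 11.88 in treated and from 10.65 to 11.04 in control RNA at 24 h, with 2 of 5 probes, both of the collagen gene Col1a1, past the threshold. The other fibroblast markers stood at 0.00 (Dcn), -0.03 (Pdgfra) and -0.25 (Lum) and did not pass. The macrophage marker sum ran from 9.63 to 9.96 in treated and from 9.38 to 9.56 in control RNA, with C1qa and Cd163 past it and Cd68 at -0.02 and the 2 Csf1r probes at 0.08 and -0.03 not past it. At 24 h the erythrocyte marker sum ran from 13.03 to 14.95 in treated and from 13.16 to 13.41 in control RNA. The adipocyte sum ran from 10.17 to 11 in treated and from 9.99 to 10.38 in control RNA. No erythrocyte, adipocyte or smooth muscle probe passed. Of 3 endothelium probes Kdr rose (0.36, limma adjusted p = 0.0414), with Pecam1 at 0.14 and Cdh5 at -0.27. Among all probes 4.15% rose. The part of these cell types in the ratios of the sarcomere genes was not tested.

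Among 32 other sarcomere genes, a list of thin filament caps, chaperones, ligases and Z-disc partners, 20 genes had 24 tested probes at 24 h. There 2 rose and 1 fell, against 4.15% and 2.77% of all probes, and the median was 0.05. Tmod4, the tropomodulin that caps thin filaments in skeletal muscle, rose by 0.36 (limma adjusted p = 0.00821). Fhl1, a LIM protein of the sarcomere, rose by 0.61 on 1 of its 2 probes (adjusted p = 0.00979), with the other at 0.34 (adjusted p = 0.0696), and Ankrd23, an ankyrin repeat protein at titin, fell by 0.41 (adjusted p = 0.0165). Lmod3, the leiomodin of skeletal muscle, did not pass, with probes at 0.11 and 0.16. None of the 24 probes passed at 8 h.

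At 8 h the member probes ran from -0.50 (Lmod2) to 0.56 (Myot), and none passed in limma's test. Leaving out 8 h replicate 2 moved this: 3 member probes then passed (Myot and Smpx higher, Tnni2 lower), while the count over all probes went to 1293 of 12068. Leaving out any other array gave none at 8 h.

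**Figure D4:**
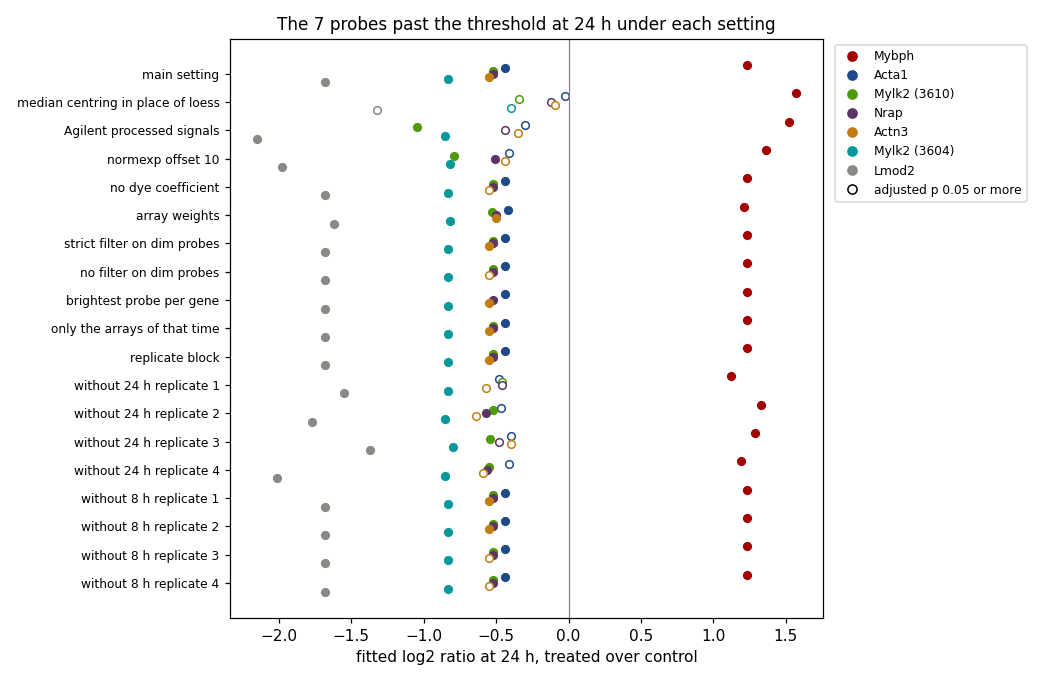
Fitted log2 ratio at 24 h (treated over control) of the 7 probes that passed, with loess and offset 50 (top row) and under each of the 18 alternatives (rows); filled points have an adjusted p under 0.05 and open points do not. Mybph is filled in every row, and with median centring in place of loess every other point is open.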

How the data were processed

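Transcripts were measured on 8 rat arrays of 2 colours made by Agilent. Per the labels' protocols, RNA came from a Trizol extraction and was labelled by Quick Amp. The submitters' processing notes name Agilent Feature Extraction, version 9.5.3.1. The deposited mean signals, local backgrounds and processed signals are linear intensities, per the file headers; the genome build of the probe positions is rn4. The authors' deposited table holds log2 ratios, which matched ratios of the processed signals, treated over control, within 1.35e-05. It had no added centring, with column medians from -0.144 to 0.0896.

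Here, mean signals were background-corrected by normexp (offset 50) and loess-normalized within arrays in limma 3.58.1 (R 4.3.3). Outlier spots (731 to 927 an array) were left out and saturated spots kept. A probe was kept if well above background on at least 3 of 4 arrays in 1 of the 4 RNA groups. Signals per channel were taken after loess and Aquantile scaling. Using lmFit and eBayes, all 8 arrays entered a linear model holding 1 coefficient per time and 1 for the dye, tested two-sided with Benjamini-Hochberg adjustment over 12073 probes at 24 h and 12069 at 8 h. All members are accounted for; those past the threshold are given array by array, and up to 4 further members with the largest ratios in each of the fast, slow, Z-disc and other groups are named. The members and lists were chosen with earlier results of these data known. Deviations of same-numbered arrays of the 2 times from the mean of their time correlated at -0.257, 0.174, -0.166 and -0.0698. Same-numbered arrays had opposite dyes and dye was not removed here, so this cannot show whether the numbers pair them. The main model held no term for the replicate number. The number of arrays limits the precision.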

Additional observations from a re-analysis of the deposited data

Results flagged for a closer look

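The 24 h and 8 h ratios of Mybph differed by 0.96 on the log2 scale in the test of the difference itself. Among the members' 69 sets of 4 arrays, 3 had an array far from the others of its group, and chance gives about 1 in 20. These were 8 h replicate 1 for Actc1, with a ratio of -1.08, 8 h replicate 3 for Nrap, with -0.32, and 8 h replicate 4 for the Xirp1 probe A_44_P142837, with 0.15.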

How the results depend on the processing

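Over 18 alternatives no member probe past the threshold reversed. Mybph at 24 h passed in all 18 (1.12 to 1.57), and Lmod2 (-2.15 to -1.32) and the brighter Mylk2 probe (-0.85 to -0.40) in 17 each, both lost with median centring in place of loess (adjusted p = 0.0647 and 0.25). The dimmer Mylk2 probe passed in 15 of 17, Nrap in 14, Acta1 in 11 and Actn3 in 7 of 18. The count of 7 member probes at 24 h became 1 with median centring (Mybph), 14 with array weights and 16 with the 24 h arrays alone, and 3 to 13 when 1 array was left out: 3 without 24 h replicate 1, 4 without 24 h replicate 3, 12 without 8 h replicate 1 and 13 without 8 h replicate 2. Tpm3, given with no test, is among the 14, the 12 and the 13. Over all 12073 probes the count of 835 became 437 with median centring, 1618 with array weights and 1708 with the 24 h arrays alone. It was 208 of 12072 without 24 h replicate 1 and 360 without 24 h replicate 3. Without 8 h replicate 1 it was 1323, and without 8 h replicate 2 it was 1181. At 8 h the member count was 0 to 3 when 1 array was left out and 0 otherwise. Between times, the count of 1 became 0 with median centring, with processed signals and without the dye coefficient, and 2 with offset 10 (Lmod2 and Mybph). Over all probes the count of 152 became 0, 83, 104 and 234 in these settings. The member count ran from 0 to 3 when 1 array was left out, against 33 to 616 over all probes. Without 24 h replicate 4 the 1 called was Lmod2, not Mybph. The difference could not be fitted on the arrays of 1 time. With the replicate number as a block the member count was 4 (Lmod2, Mybph, Mylk2 and Nrap), and 9 at 24 h, against 341 and 924 over all probes. Of the 8 arrays, 1 correlated best with its own number. Median centring moved the median of all probes at 24 h to 0.15 and the share of higher calls to 95.7%, against 60% with loess. The cause was not tested.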
